A study of Homo sapiens with 4 samples.

Results

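The decay factors described here are proteins that shorten the life of cytokine transcripts. They were chosen by name, as 3 relatives of the MCP-1-induced protein MCPIP-1 (ZC3H12B, ZC3H12C and ZC3H12D), both Roquin genes (RC3H1 and RC3H2), the tristetraprolin (TTP) family (ZFP36, ZFP36L1 and ZFP36L2), the helicase UPF1 and the RNA-binding protein KHSRP. A named row was found for 9 of these 10 genes, out of 17687 genes with a row. KHSRP was not analysed here, and neither was ZC3H12A, the gene of MCPIP-1 itself, since the gene table used here names no row for them. RNA came from MCP-1-treated CRL-1932 cells (5 ng/mL, 16 h, 2 arrays) and from untreated CRL-1932 cells of the same passage (2 arrays). CRL-1932 is the catalogue number of 786-O, 1 human clear cell renal carcinoma line that lacks a working VHL protein, so the arrays describe a single line in culture, without the monocytes that MCP-1 recruits in a tumor. The array methods of the study describe duplicate dishes and a longer exposure than the labels give. The limma p-values and intervals rest on the spread between these dishes, taken mostly over all probe sets together. Each gene's own spread has 1 residual degree of freedom, against 9.60 for the shared one.

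Cytokine transcripts are short-lived because proteins bind elements in their 3′ untranslated regions and bring in nucleases. MCPIP-1 is an endonuclease that cuts stem-loops of inflammatory transcripts and acts together with UPF1, Roquin proteins bind similar stem-loops and recruit the CCR4-NOT deadenylase, and TTP proteins bind AU-rich elements and recruit the same deadenylase. MCP-1 is known to induce MCPIP-1, and the comparison asks whether the RNA of the related decay factors differed between MCP-1-treated and untreated cells.

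None of the 9 measured decay factors passed the test. The largest difference was that of UPF1, higher in MCP-1-treated cells by 0.43 on the log2 scale, and ZC3H12C followed with 0.34. ZFP36L1 lay lowest with -0.22. The 9 genes had adjusted p-values of 1 (limma, Benjamini-Hochberg over 21448 probe sets), where 0.0326% of all probe sets passed an adjusted p of 0.05 (0.00932% higher and 0.0233% lower). At an unadjusted limma p under 0.05 the count was 0 of 9, where 4.95% of all probe sets passed. The 95% confidence interval of every one of the 9 log2 fold changes lay between -0.76 and 0.97. A doubling or halving of the signal thus lay outside each of them when all 4 arrays were used. For ZC3H12B and ZC3H12D, which were not detectable above background, this bounds the signal and not the transcript. With 1 array left out, 6 to 8 of the 9 intervals stayed within a 2-fold change. That of UPF1 reached 1.31 without untreated replicate 2, and those of ZC3H12C, ZFP36 and RC3H1 also passed 1 in some of these fits.

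The typical size of the differences was that of the array as a whole. The median absolute log2 fold change was 0.16 over the 9 decay factors and 0.16 over all probe sets tested. In MCP-1-treated cells 7 of the 9 genes were higher and 2 lower, where 52.3% of all probe sets were higher. The signed median was 0.15 for the 9 genes and 0.01 for all probe sets. It was -0.04 without MCP-1-treated replicate 1. The 2 groups did not overlap for 5 of the 9 genes (3 higher and 2 lower), against 31.6% of all probe sets. In 6 of the 9 genes both replicate pairs differed in the same direction. For the 5 without overlap this follows for any pairing, so it is not a separate result. These counts include ZC3H12B and ZC3H12D, which were not detectable above background.

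**Figure D1:**
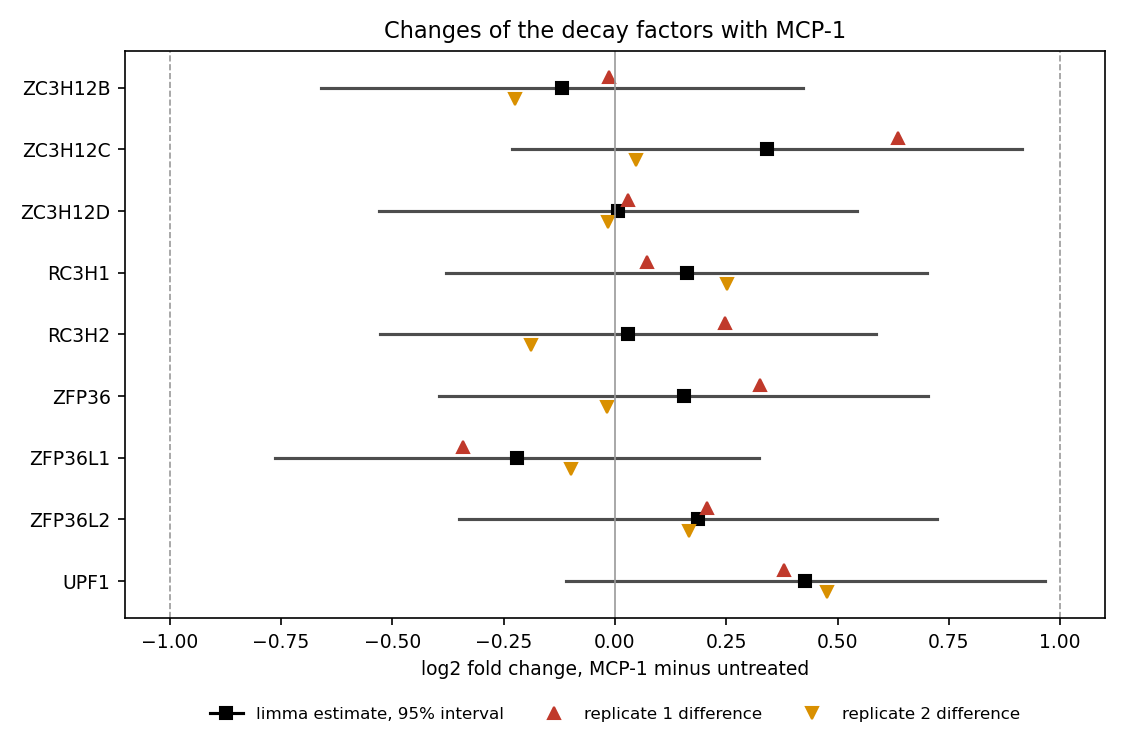
Log2 fold change (MCP-1 minus untreated) of the 9 decay factors. Squares are limma estimates with their 95% intervals, triangles the differences of replicate 1 (pointing up) and replicate 2 (pointing down), and dashed lines mark a 2-fold change. Every interval crosses 0 and ends inside the dashed lines. ZC3H12B and ZC3H12D were not detectable above background.

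ZC3H12B, ZC3H12C and ZC3H12D share with MCPIP-1 a PIN-like nuclease domain and a single CCCH zinc finger. ZC3H12C had log2 signals of 8.92 and 8.50 in MCP-1-treated cells, against 8.28 and 8.45 in untreated cells. Both treated arrays lay above both untreated ones, by 0.05 at the nearest, and most of the difference came from MCP-1-treated replicate 1. The log2 fold change was 0.34 (standard error 0.26, 95% interval -0.23 to 0.91), with 0.64 in the first replicate pair and 0.05 in the second. It was 0.14 when the first treated array was left out and 0.55 when the second was.

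ZC3H12B had log2 signals of 4.55 and 4.34 in MCP-1-treated cells, against 4.57 and 4.57 in untreated cells. ZC3H12D had 4.65 and 4.55 in MCP-1-treated cells, against 4.62 and 4.57 in untreated cells. The background limit used here is each array's 90th percentile of negative control signals, which was 6.36 and 6.70 in MCP-1-treated cells and 6.48 and 6.36 in untreated cells. Both genes stayed under the background limit on every array, so their RNA was not detectable above background. Their log2 fold changes of -0.12 and 0.01 therefore say little about the transcripts. ZC3H12C was the only one of the 3 relatives above it, as were 46.7% of all probe sets on all 4 arrays.

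The Roquin genes RC3H1 and RC3H2 encode paralogous proteins that bind stem-loops such as the constitutive decay element of TNF. RC3H1 had log2 signals of 9.78 and 10.13 in MCP-1-treated cells, against 9.71 and 9.88 in untreated cells. RC3H2 had 12.46 and 12.22 in MCP-1-treated cells, against 12.21 and 12.41 in untreated cells. The groups overlapped for both genes. The log2 fold change was 0.16 for RC3H1 (standard error 0.24) and 0.03 for RC3H2 (standard error 0.25). For RC3H1 the interval ran from -0.38 to 0.70. For RC3H2 it ran from -0.53 to 0.59, and the pairs pointed in opposite directions, 0.25 and -0.19.

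ZFP36 encodes TTP, an early response gene in many cell types, and ZFP36L1 and ZFP36L2 encode its relatives. ZFP36 had log2 signals of 11.33 and 10.75 in MCP-1-treated cells, against 11.01 and 10.77 in untreated cells. It had the widest spread of the 9 genes, with a within-group SD of 0.31, larger than that of 72.8% of all probe sets. The treated arrays were thus the highest and the lowest of the 4. Its log2 fold change was 0.15 (standard error 0.25, 95% interval -0.39 to 0.70), and without MCP-1-treated replicate 1 it was -0.14.

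ZFP36L1 had log2 signals of 14.88 and 15.05 in MCP-1-treated cells, against 15.22 and 15.15 in untreated cells. ZFP36L2 had 10.06 and 9.96 in MCP-1-treated cells, against 9.86 and 9.79 in untreated cells. Neither gene's groups overlapped, with both treated arrays lower for ZFP36L1 (15.2% of all probe sets showed this) and higher for ZFP36L2 (16.3%). The log2 fold change of ZFP36L1 was -0.22 (standard error 0.25, 95% interval -0.76 to 0.32), and the pairs gave -0.34 and -0.10. That of ZFP36L2 was 0.19 (standard error 0.24, 95% interval -0.35 to 0.72), and the pairs gave 0.21 and 0.17. ZFP36L2 had one of the smallest spreads of the 9 genes, a within-group SD of 0.06, below that of all but 7.48% of probe sets. The directions of ZFP36L1 and ZFP36L2 stayed as given in every alternative fit, and none of these fits called them. The difference between the paralogs was not tested.

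UPF1 is the RNA helicase at the core of nonsense-mediated decay, which removes transcripts with early stop codons, and it also works with MCPIP-1 on transcripts that are being translated. Its log2 signals were 9.65 and 10.00 in MCP-1-treated cells, against 9.27 and 9.52 in untreated cells. Both treated arrays lay above both untreated ones, and the replicate pairs differed by 0.38 and 0.48. The log2 fold change of 0.43 corresponds to 1.35-fold (standard error 0.24, 95% interval -0.11 to 0.97, limma adjusted p = 1). It was larger in size than that of 88.0% of probe sets. It was 0.60 when treated replicate 1 was left out and 0.26 when treated replicate 2 was, and its adjusted p over the alternative fits ran from 0.512 to 1.

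**Figure D2:**
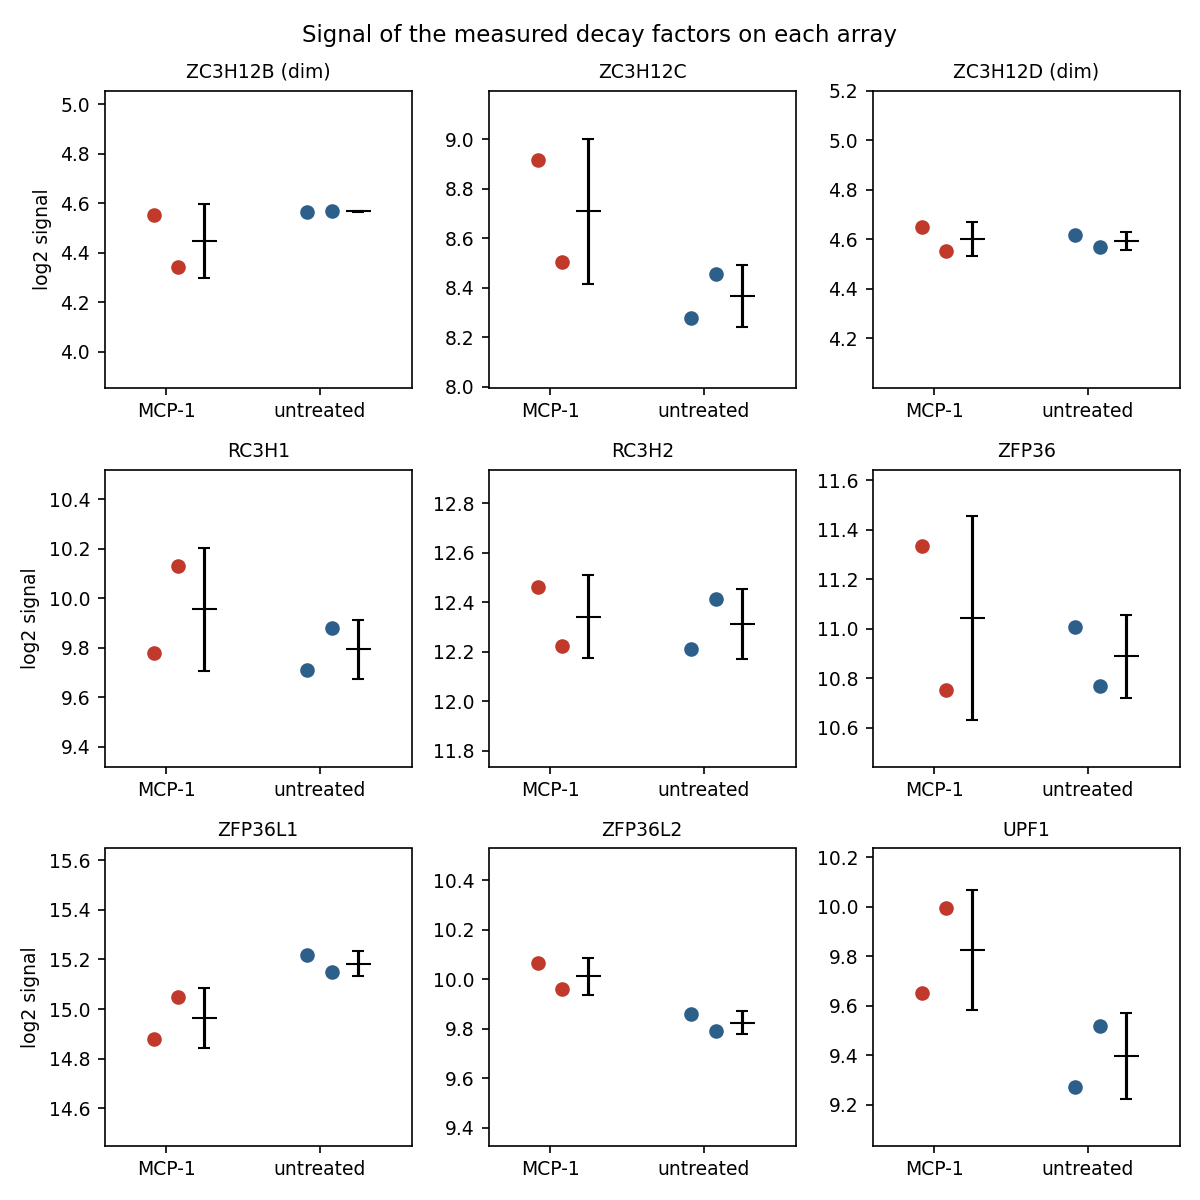
Log2 signal (vertical axis) of each of the 9 decay factors on each array. Red points are the 2 MCP-1-treated arrays and blue points the 2 untreated ones, bars give the mean and SD, and every panel spans 1.2 log2 units. ZC3H12B and ZC3H12D, marked dim, stay under the background limit, and ZFP36 shows the widest treated spread.

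**Figure D3:**
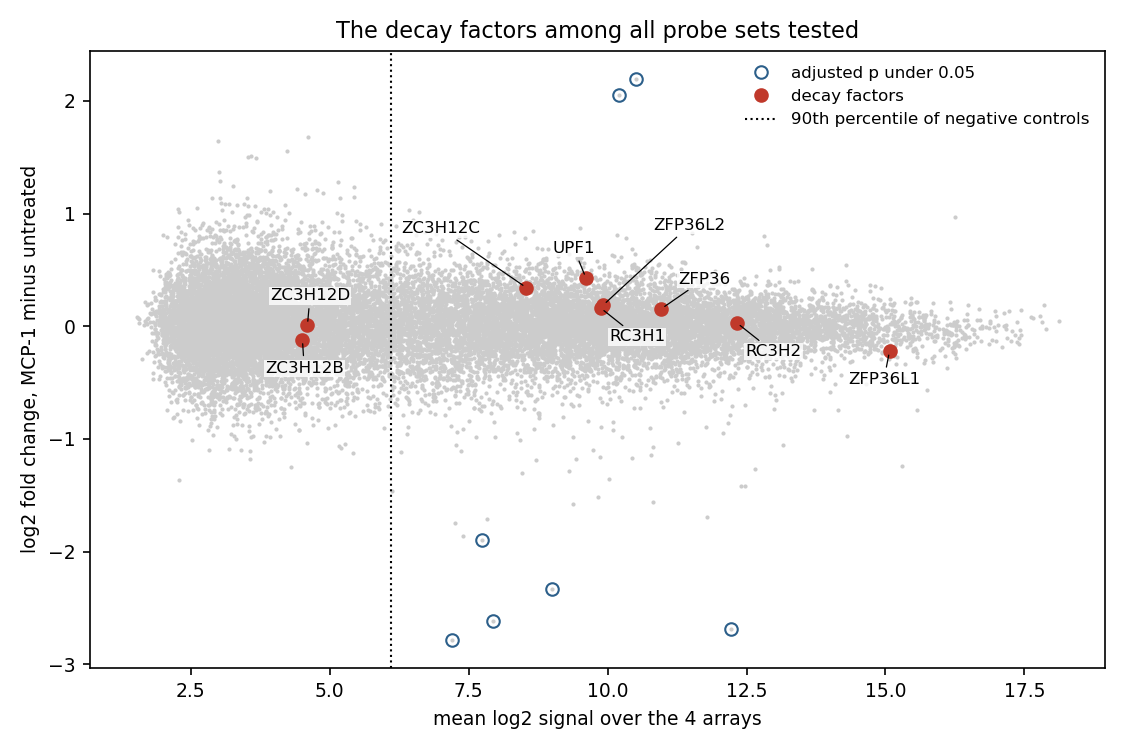
Log2 fold change (MCP-1 minus untreated) against the mean log2 signal of the 4 arrays, for all 21448 probe sets tested (grey) and the 9 decay factors (red). Blue rings mark the 7 probe sets past an adjusted p of 0.05, and the dotted line at 6.11 marks the background limit taken over means of the 4 arrays. The decay factors lie within the bulk of probe sets.

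The stretches upstream of these genes are shown for the 3 members whose promoters held a motif of a factor that inflammatory signals or stress act on. RefSeq promoters (GRCh38.p14) matched 8 of the 10 genes, with 2 each for ZC3H12C and ZFP36L1. The 250 bases before each start were searched on both strands for the NF-κB motif GGGRNNYYCC and the AP-1 motif TGANTCA. The cyclic AMP response element TGACGTCA, which ATF and CREB factors bind, was searched in the same way. R is A or G, Y is C or T and N is any base, so the NF-κB pattern is a loose one. The motifs were chosen with the values known. Capitals mark the matches, and those in RC3H2 are 2 overlapping matches.
RC3H2, NF-κB, chr9:122905553-122905609, minus strand: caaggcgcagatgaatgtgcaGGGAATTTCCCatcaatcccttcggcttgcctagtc
ZC3H12C, NF-κB, chr11:110093142-110093194, plus strand: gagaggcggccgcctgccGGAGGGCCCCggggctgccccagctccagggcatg
ZFP36L1, cyclic AMP response element, chr14:68793436-68793493, minus strand: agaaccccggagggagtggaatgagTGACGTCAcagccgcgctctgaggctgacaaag

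The NF-κB motif was found in 9.96%, the AP-1 motif in 6.57% and the cyclic AMP response element in 1.65% of 35116 promoters. The matches of ZC3H12C and ZFP36L1 each lie in 1 of the 2 promoters of the gene. RC3H2 carried the NF-κB match with a log2 fold change of 0.03 and ZC3H12C with 0.34, and ZFP36L1 carried the response element with -0.22. The letters of these 3 motifs were not in the windows of RC3H1, ZC3H12B, ZFP36, UPF1 and KHSRP. A match is a description of the sequence and not a binding site.

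Relatives and regulators of the decay factors, other RNA-binding proteins and the machinery that takes over transcripts also held no gene past the adjusted threshold. Over 7 lists of pathway genes other than the 9, 115 genes were measured, of which 60 were higher and 55 lower in MCP-1-treated cells, with a median log2 fold change of 0.0017. None passed limma's adjusted threshold, and 2 higher and 1 lower passed an unadjusted p under 0.05, where 2.59% and 2.36% of all probe sets did. These were ZC3HAV1 and ELAVL2 (higher) and DUSP1 (lower), which are not in the lists of decay machinery.

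Among the relatives of the nuclease domain and CCCH finger proteins, 0 of 4 were called. ZC3HAV1, the CCCH protein ZAP that leads viral RNA to decay, had log2 signals of 11.67 and 12.25 in MCP-1-treated cells, against 11.12 and 11.39 in untreated cells. Both treated arrays were higher, with a log2 fold change of 0.70 (standard error 0.25, limma adjusted p = 0.957). KHNYN, the nuclease that acts with ZAP, had a log2 fold change of 0.20 with pairs in opposite directions. NYNRIN, at 0.17, lay within the range of the negative controls.

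Of the 22 measured regulators that phosphorylate, bind, cleave or ubiquitinate these factors, none was called and 1 lower gene passed an unadjusted p under 0.05. This was DUSP1, the phosphatase that switches off the p38 kinase and so the phosphorylation of TTP, which had log2 signals of 12.29 and 11.84 in MCP-1-treated cells, against 12.61 and 12.64 in untreated cells. Its log2 fold change was -0.56 (limma adjusted p = 1). FBXW11, a subunit of the ubiquitin ligase that marks MCPIP-1, had 0.31, and TANK, an adaptor of NF-κB signaling, had -0.26.

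Among 21 other proteins that bind such elements, ELAVL2, of the HuR family, at 0.64 (limma adjusted p = 0.960), lay within the range of the negative controls. FUBP1, a relative of KHSRP, had log2 signals of 11.34 and 11.16 in MCP-1-treated cells, against 10.85 and 10.70 in untreated cells, a log2 fold change of 0.47. ARID5A, which stabilizes IL6 transcripts, had -0.37. None of the 21 was called.

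None of the 16 genes of deadenylation was called, and their log2 fold changes lay between -0.19 and 0.34. CNOT11, a subunit of CCR4-NOT, had 0.34, TOB1, which brings the deadenylase to transcripts, had 0.24, and CNOT4 had 0.23 with pairs of 0.75 and -0.29. Decapping and 5′ decay counted 13 genes higher and 7 lower of 20, with 0 called. XRN1, the exonuclease that degrades decapped RNA, had a log2 fold change of -0.39, the scaffold EDC4 had 0.46 with pairs of -0.27 and 1.20, and EIF4ENIF1, which binds the cap-binding protein, had 0.32. Of 15 genes of the exosome and 3′ decay none was called, with DIS3, a catalytic subunit, at 0.44, the SKI complex subunit SKIC8 at 0.34 and the exosome subunit EXOSC8 at -0.23.

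The partners of UPF1 were split in direction. Of 17 measured, 9 were higher and 8 lower, with a median log2 fold change of 0.04 and 0 called. SMG5, which links UPF1 to its phosphatase and to decay, had log2 signals of 10.45 and 10.26 in MCP-1-treated cells, against 10.99 and 10.72 in untreated cells. Its log2 fold change was -0.50 (standard error 0.24, limma adjusted p = 1), with pairs of -0.53 and -0.47. The helicase DHX34 had 0.44 at a signal within the range of the negative controls, and NBAS had -0.26.

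**Figure D4:**
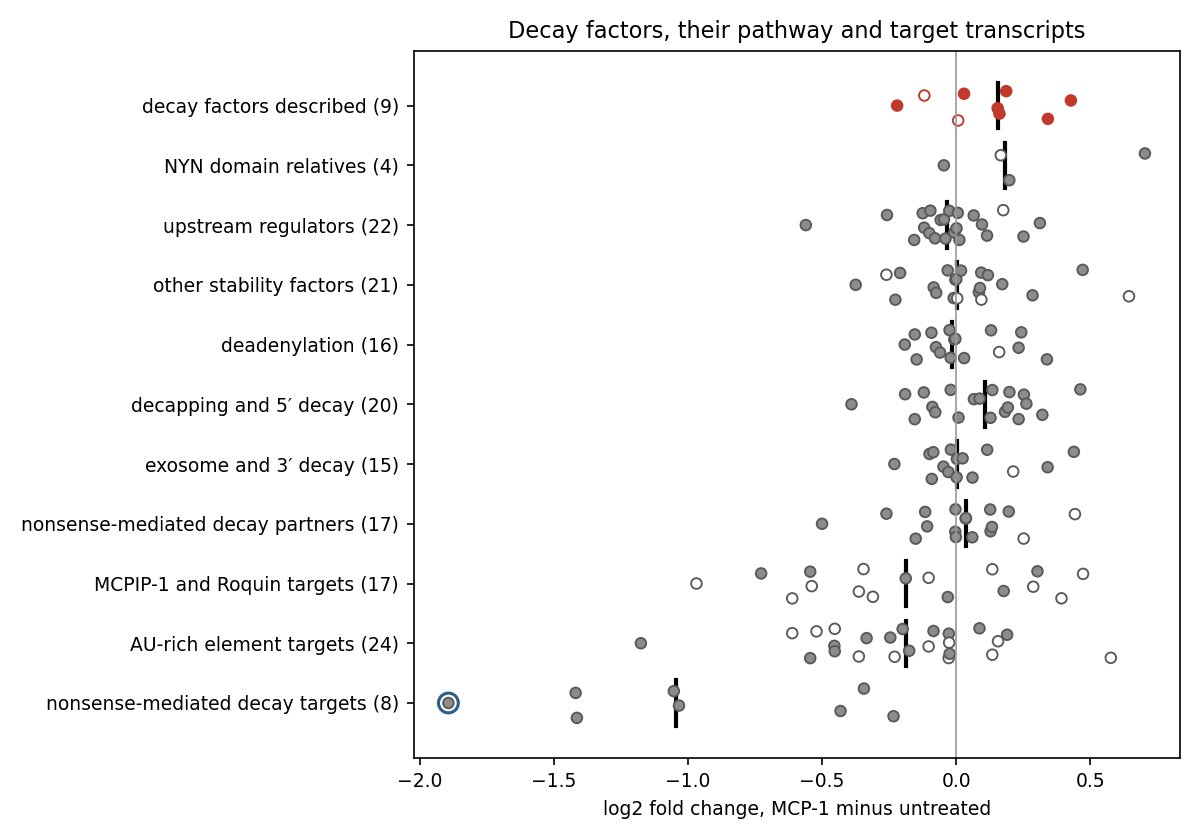
Log2 fold changes (MCP-1 minus untreated) of the 9 decay factors (red), of the 7 pathway lists and of 3 lists of target transcripts (grey), with the number of genes measured in parentheses. Open points are genes not above the background limit on all 4 arrays, black bars are medians, and the blue ring marks the gene past an adjusted p of 0.05, ATF3. The medians of the factor lists lie between -0.03 and 0.18 and that of nonsense-mediated decay targets at -1.04.

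Among 8 measured transcripts that nonsense-mediated decay is known to degrade, 1 was called, ATF3, which was lower in MCP-1-treated cells. The median log2 fold change of the 8 was -1.04, and all 8 values were below 0. ATF3, a stress-induced transcription factor, fell to log2 signals of 6.52 and 7.08 in MCP-1-treated cells, against 8.62 and 8.76 in untreated cells, a log2 fold change of -1.89 (limma adjusted p = 0.0430), and the other 7 were not called. The alternative fits of ATF3 were added after its call had been seen. The call held with a trended robust prior (limma adjusted p = 1.74e-08), with the 3 filters on dim probe sets (7.52e-07 to 0.0233) and with 1 probe set per gene (0.0425). In the trended robust fit the shared spread had infinite degrees of freedom at the median probe set. Under the filters at the median signal and at the background limit it had 32.0 and 28.5. The smallest of these p-values thus rest on spread pooled over probe sets, and little on that of ATF3 itself. It was lost with no replicate block (adjusted p = 0.504), after centring (0.363), after quantile normalization (0.283) and with any array left out (-1.62 to -2.17 on the log2 scale, adjusted p from 0.500 to 1). SLC7A11, the cystine importer, had a log2 fold change of -1.42 (adjusted p = 0.213), and GADD45A, a growth arrest gene, had -1.41 (adjusted p = 0.223). At an unadjusted limma p under 0.05, 5 of the 8 were lower, where 2.36% of all probe sets were. Several of the 8, such as ATF3, SLC7A11 and the gene of ATF4 itself at -0.43, also belong to the ATF4 stress response, and the list was written with earlier results on genes of that response in these arrays known, so its direction is not independent evidence. The part of decay in these values was not tested.

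Of 17 measured transcripts tied to MCPIP-1 or Roquin, 11 were lower and 6 higher in MCP-1-treated cells, and 0 were called. Over all probe sets, 52.3% were higher. At an unadjusted limma p under 0.05, 5 were lower and 0 higher, where 2.36% and 2.59% of all probe sets were. IL1B, at -0.97 (limma adjusted p = 0.639), and CXCL2, at -0.61, lay within the range of the negative controls. CEBPB, a transcription factor of inflammation, had log2 signals of 7.92 and 7.51 in MCP-1-treated cells, against 8.27 and 8.62 in untreated cells, a log2 fold change of -0.73 (limma adjusted p = 0.960). The median of the list was -0.19, and 6 of the 17 genes were above the background limit on all arrays.

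Of 24 transcripts with AU-rich elements tied to the TTP family or KHSRP, 19 were lower and 5 higher in MCP-1-treated cells, with a median of -0.19 and 0 called. At an unadjusted limma p under 0.05, 3 were lower and 1 higher, against the same 2.36% and 2.59% of all probe sets. CXCL8, a chemokine of neutrophils, had log2 signals of 8.69 and 8.99 in MCP-1-treated cells, against 10.06 and 9.97 in untreated cells (limma adjusted p = 0.453). FOS, the 1 higher gene, had 0.58 within the range of the negative controls. CCL2, the gene of MCP-1 itself, had log2 signals of 6.08 and 5.80 in MCP-1-treated cells, against 6.41 and 6.38 in untreated cells, a log2 fold change of -0.45, with 1 of the 4 arrays above the background limit. This list and that of MCPIP-1 and Roquin shared 5 genes, 20.8% of the 24 and 29.4% of the 17. Of the 36 genes in either list, 18 were above the background limit on all arrays, and 14 of these 18 were lower in MCP-1-treated cells with none called. Over all probe sets, 52.3% were higher. Both lists were written with earlier results of these data known, so their direction is not independent evidence. The part of decay in these values was not tested.

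All 10 measured markers of clear cell carcinoma and 786-O, among them PAX8 and EPAS1, were above the background limit on all arrays, whereas 0 of 5 lymphocyte and 0 of 5 endothelial markers were. Of 7 monocyte and macrophage markers 1, CD68, was, and CD14 was within the range of the negative controls on every array. The mean log2 signal of these 7 markers was 5.02 and 5.23 in MCP-1-treated cells, against 4.96 and 5.21 in untreated cells. That of the lymphocyte markers was 3.86 and 4.32, against 3.86 and 3.82. That of the endothelial markers was 3.23 and 3.64, against 3.17 and 3.27. MCP-1-treated replicate 2 was the highest array in each of these lists, and it also had the highest background limit, 6.70. The part of this array in the differences of dim genes was not tested. The array medians ran from 6.20 to 6.28. MCP-1-treated replicate 2 correlated least with the other arrays (r between 0.9929 and 0.9933 across probe sets, which are not independent replicates). Without it, ATF3 had a log2 fold change of -2.17. The part of this array in the differences of the other genes was not tested.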

How the data were processed

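Total RNA of 786-O cells was hybridized to 4 Clariom S arrays, 2 per group. The authors deposited log2 signals, 1 per probe set and array, made in Expression Console 1.4. Signal Space Transformation and then RMA (robust multiarray averaging) put the arrays on a similar but not identical scale. Array medians ran from 6.20 to 6.28 and background limits from 6.36 to 6.70. The genome build is not given in the sources used here. The table has 24351 rows, of which 21448 were tested and 2903 are controls, 612 of them negative controls that gave the background limit. Genes were taken from the platform annotation, and the probe set with the highest mean stood for a gene.

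Differences were fitted with limma 3.58.1 (R 4.3.3) on treatment, blocked by replicate number after the paired test of the methods, which leaves 1 residual degree of freedom (prior 9.60), and adjusted by Benjamini and Hochberg. Log2 fold changes are MCP-1 minus untreated. Scripts were tested on simulated data, and figures used Python 3.11.15 with matplotlib 3.10.9. The number of arrays limits the precision.

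The members, lists and motifs were chosen with earlier results of these data known. Besides the members, the 3 genes of each pathway and target list with the smallest limma p and CCL2 are named. ATF4, CD68, CD14, PAX8 and EPAS1 fall outside this rule and were picked with their values in view. Alternatives were no replicate block, median centring, quantile normalization, a trended robust prior, 3 filters on dim probe sets, a single probe set per gene, leaving out each array, and the paired t-test.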

Additional observations from a re-analysis of the deposited data

How the results depend on the processing

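None of the 9 decay factors was called in any alternative fit on all 4 arrays, nor by the methods' paired t-test after Benjamini-Hochberg. The methods' limits, a t-test p under 0.05 and a fold of at least 2, could call none of them. The largest change was 1.35-fold (UPF1), so the fold limit alone kept all 9 out. Their smallest unadjusted paired t-test p was 0.0657 (ZFP36L2). The count over all probe sets moved from 7 with the block to 0 with no replicate block, after centring and after quantile normalization. It was 69 with a trended robust prior, and 51 and 49 with the filters at the median signal and at the background limit. The methods' t-test gave 20 probe sets, and 4 after adjustment. With no replicate block the count called among the 9 genes was 0. Their median stayed at 0.15, since the block cannot move log2 fold changes in this balanced design. Replicate numbers need not mark paired dishes, since deviations from the group means correlated at -0.0466 between arrays of the same number.

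With 1 array left out, the median of the 9 genes ran from -0.04 to 0.15 (lowest without MCP-1-treated replicate 1). Of the single genes, UPF1, ZC3H12C, ZC3H12B, ZFP36L1 and ZFP36L2 kept their direction after centring and after quantile normalization. No other fit could have turned them. Their groups did not overlap, so leaving out an array keeps the direction, and the remaining fits leave the log2 fold changes as they were. Leaving out 1 array turned RC3H1 (-0.013 to 0.34), RC3H2 (-0.088 to 0.15), ZFP36 (-0.14 to 0.45) and ZC3H12D (-0.040 to 0.055), and ZC3H12D was also turned by centring (-0.0032) and by quantile normalization (-0.024). The groups of these genes overlapped, so leaving out an array could turn them. Centring moved every log2 fold change by the same amount, which was more than the 0.007 of ZC3H12D. Why the arrays differed was not tested. The filters at the median and above left 7 of the 9 genes, without ZC3H12B and ZC3H12D.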
